A study of Mus musculus with 2 samples.

Results

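The genes described are 39 named genes of ribosome biogenesis and of the nucleolus. They were chosen by symbol for what their products do and not for their measured values, though earlier results of these data were known. All 39 symbols were matched to a gene identifier, out of 43346 Ensembl genes in the deposited tables. The RNA came from G1E-ER4, an immortalized mouse erythroid line of strain C57BL/6J that has no Gata1 of its own and in which Gata1 activity was restored in an estradiol-dependent form. The single group held 2 biological replicates, both grown with 10 nM 17beta-estradiol for 24 h, which starts erythroid differentiation. Total RNA, 100 ng per library, was depleted of ribosomal RNA and sequenced with the ScriptSeq kit. No untreated library was analysed here, so the values below are levels, ratios within a library and differences between the replicates, and no effect of estradiol was tested.

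Ribosomes are built in the nucleolus. RNA polymerase I transcribes a long precursor RNA there, small nucleolar RNAs in protein complexes (snoRNPs) guide its methylation and pseudouridylation, and large assemblies fold and cut it into the RNAs of the small and large subunits. Late factors then carry the subunits through export and final cleavage in the cytoplasm. In erythroid cells this pathway is known from disorders in which faulty ribosome production leads to anaemia.

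The Ensembl rows summed to 62080996 expected counts in replicate 1 and to 41051158 in replicate 2. An expected count is an estimated number of reads for a gene, and TPM is that estimate divided by transcript length and scaled to a fixed sum per library. The libraries carried the labelled identity: 16 of 16 erythroid markers reached 1 TPM in both, with a summed level of 3135 TPM in replicate 1 and 4153 TPM in replicate 2. None of 8 myeloid, 7 lymphoid, 5 mast cell or 6 stromal or endothelial markers did, with Cd3e, Col1a1 and Cdh5 listed at 0, and of 7 megakaryocyte markers 2 did. In bulk RNA, fewer cells that use a gene and less RNA per cell cannot be told apart. The labels number the libraries as biological replicates but do not say that they came from separate cultures, so their spread may be partly technical.

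Nearly all of these genes were detected in both libraries, most at middling levels. At 1 TPM or more in both libraries stood 38 of the 39 genes, where 36.3% of the 21461 protein-coding nuclear genes in the tables did so. At 10 TPM or more stood 15 of 39, against 12.1% of all protein-coding nuclear genes. The median of the 39 was 7.04 TPM, 6.24 TPM in replicate 1 and 7.83 TPM in replicate 2, beside a median of 6.43 TPM over the 7781 expressed genes, those at 1 TPM or more in both. Of the 39, 20 lay above that median. Their summed level was 581.4 TPM in replicate 1 and 581.9 TPM in replicate 2, or 0.412% and 0.404% of the TPM of all protein-coding nuclear genes. The sum was therefore almost equal in both libraries, while single members moved in opposite directions within it. Npm1, the largest part, was lower in replicate 2 (173.7 and 146.6 TPM in replicates 1 and 2), while 28 of the 39 were higher there in TPM. By counts the 39 held 0.407% and 0.421% of the counts of protein-coding nuclear genes in replicates 1 and 2. The lowest count behind any level was 108, for Gar1 in replicate 2.

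**Figure D1:**
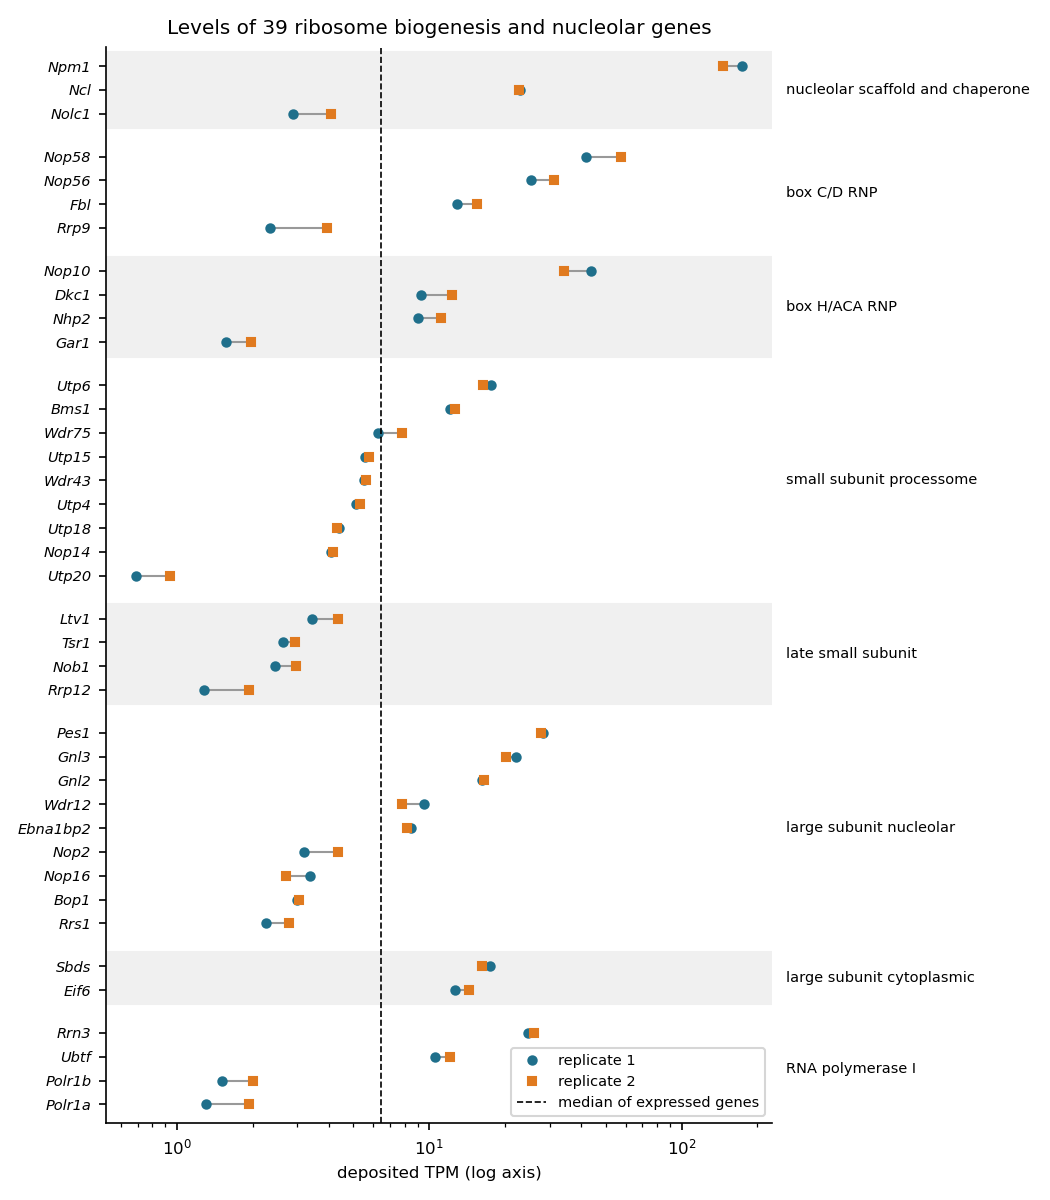
Deposited TPM on a log axis for each of the 39 genes, grouped by role, with replicate 1 as circles, replicate 2 as squares and the median of expressed genes (6.43 TPM) as a dashed line. Npm1 stands alone near 160 TPM, and Utp20 is the one gene under 1 TPM in both libraries.

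Among the scaffolds and chaperones of the nucleolus, Npm1 was the most abundant of the 39. Npm1 (nucleophosmin, an acidic chaperone of histones and ribosomal proteins; GRCm38 chromosome 11, 33152287 to 33163206, minus strand) had 173.7 and 146.6 TPM in replicates 1 and 2, a mean of 160.2 ± 19.2 TPM (SD, n = 2). It alone made up 29.9% of the summed level of the 39 genes in replicate 1 and 25.2% in replicate 2. Ncl (nucleolin, an RNA-binding protein of the precursor RNA; chromosome 1, 86344719 to 86359400, minus strand) had 22.98 and 22.71 TPM. Npm1 was 6.99-fold higher than Ncl per length, a log2 ratio of 2.80 ± 0.16 (SD, n = 2). That ratio was 1.20 with counts not divided by length and 4.79 with the TPM of protein-coding transcripts alone, an alternative chosen after seeing the data. Nolc1, a chaperone that binds snoRNPs and RNA polymerase I, had 2.89 and 4.09 TPM, and its log2 ratio to Ncl was -2.73 ± 0.37, or -0.71 on coding transcripts alone. The rank of Ncl depended on length: it was 7 of 39 by TPM and 2 by count, on an annotated coding transcript of 8202 bases.

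Box C/D snoRNPs methylate ribosomal RNA at sites picked by their guide RNA, and their core genes were among the higher of the 39. Nop58, a core scaffold protein, had 41.8 and 57.4 TPM in replicates 1 and 2. Its partner Nop56 had 25.3 and 31.1 TPM, and Fbl (fibrillarin, the methyltransferase) had 12.9 and 15.5 TPM. The order by deposited TPM was Nop58, Nop56, Fbl in both libraries. Nop58 was 3.46-fold higher than Fbl, a log2 ratio of 1.79 ± 0.14, and Nop56 was 1.98-fold higher than Fbl, 0.99 ± 0.03. On coding transcripts alone these log2 ratios were 0.93 and 0.39. The log2 ratio of Nop56 to Nop58 was -0.80 ± 0.11. With counts not divided by length this last ratio reversed to 0.20, so the order of Nop56 and Nop58 rests on transcript length. Rrp9, a protein of the snoRNP that helps to cut the precursor, was far lower than these at 2.34 and 3.95 TPM.

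Box H/ACA snoRNPs convert uridine to pseudouridine, and their core proteins also serve telomerase. Their 4 core genes were spread over a range of levels. Nop10, a small protein that holds the complex together, had 43.9 and 34.1 TPM in replicates 1 and 2. Dkc1 (dyskerin, the pseudouridine synthase) had 9.31 and 12.3 TPM, and Nhp2, an RNA-binding partner, had 9.05 and 11.1 TPM. Gar1, a partner of dyskerin that is needed for activity, was the lowest at 1.56 and 1.97 TPM, from 130 and 108 counts. Nop10 was 3.61-fold higher than Dkc1, a log2 ratio of 1.85 ± 0.54, or 3.29 on coding transcripts alone. Nhp2 was 5.72-fold higher than Gar1, 2.52 ± 0.03, and the log2 ratio of Gar1 to Dkc1 was -2.61 ± 0.05. With counts not divided by length these were 3.57 and -4.17, and on coding transcripts the first was 3.43. Nhp2 and Dkc1 lay close together, with a log2 ratio of -0.10 ± 0.08. On coding transcripts alone that ratio turned to 1.29, since only 3.20 and 4.86 TPM of Dkc1 came from coding transcripts.

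Members of the list are also places from which guide RNAs come. Many snoRNAs are cut from introns of host genes, and 21 annotated snoRNA genes lay inside 7 of the 39 genes on the same strand. Of all 7781 expressed genes, 2.17% held such a gene. Nop56 held 5, Nop58 held 4, Ncl, Gnl3 and Wdr43 held 3 each, Tsr1 held 2 and Dkc1 held 1. The sequences below are mouse snoRNA genes of 5 hosts from GENCODE transcripts (GRCm38), shown because they lie inside protein genes of the list. Capitals mark box C (TGATGA) and the last box D core (CTGA) in box C/D RNAs, and the ACA that stands 3 bases from the 3′ end in box H/ACA RNAs, as found by a search for these letters on the RNA strand. Snord110 (chr2:130275506-130275573, plus strand) and Gm24451 (chr2:130276237-130276369, plus strand) lie in Nop56, and Snord11 (chr1:59704790-59704873, plus strand) lies in Nop58. Snord82 (chr1:86356261-86356330, minus strand) and Snora75 (chr1:86351169-86351301, minus strand) lie in Ncl. Snord69 (chr14:31014287-31014366, minus strand) lies in Gnl3 and Snord92 (chr17:71631281-71631365, plus strand) in Wdr43.
Snord110: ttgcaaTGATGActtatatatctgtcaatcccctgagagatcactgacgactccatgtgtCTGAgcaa
Snord11: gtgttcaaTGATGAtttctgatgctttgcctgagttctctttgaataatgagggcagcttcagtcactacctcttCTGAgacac
Snord82: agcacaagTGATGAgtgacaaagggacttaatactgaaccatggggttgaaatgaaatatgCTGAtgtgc
Snord69: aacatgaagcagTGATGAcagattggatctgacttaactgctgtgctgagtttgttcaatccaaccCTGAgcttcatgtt
Snord92: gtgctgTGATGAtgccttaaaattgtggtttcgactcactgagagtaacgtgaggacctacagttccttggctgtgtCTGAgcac
Gm24451: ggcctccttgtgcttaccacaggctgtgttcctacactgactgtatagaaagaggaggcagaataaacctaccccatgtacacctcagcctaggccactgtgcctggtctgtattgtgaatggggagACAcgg
Snora75: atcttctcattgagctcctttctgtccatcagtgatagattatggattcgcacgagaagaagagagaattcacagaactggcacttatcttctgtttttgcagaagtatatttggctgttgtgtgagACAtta

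Read as a set, these show both classes of guide within the list. Box C/D RNAs lay in Nop56 and Nop58, whose proteins bind that class. They also lay in Ncl, Gnl3 and Wdr43, which are not among the box C/D genes of the list. Box H/ACA RNAs lay in Nop56 and Ncl, which are not among its box H/ACA genes. The class of guide thus matched the role of the host only in part. Only genes in which the search succeeded are shown. It did not find these letters in full in Gm23187, Gm23650 and Snord57 of Nop56, or in Snord70 and Gm26293 of Nop58. Nor did it in Snord19 of Gnl3, Snord91a and Gm22771 of Tsr1, Snord53 of Wdr43 and Gm25520 of Dkc1. The tables could not measure most of the 21 snoRNA genes. The 21 genes are 68 to 133 bases long, and 18 had an effective length of 0 in both libraries, meaning that no fragment of the sequenced size could start in them. They are listed at 0, which says nothing of the RNA itself. Gm24451, the box H/ACA gene in Nop56, was the one with counts in both libraries, 74 and 34, which gave 125.1 and 137.2 TPM. These TPM rest on effective lengths of only 2.88 and 1.74 bases, so they cannot be set beside the level of Nop56. No exon of a listed Nop56 transcript held the whole of Gm24451. Exons were searched only in hosts with several listed transcripts, so not in Gnl3 or Wdr43. In the hosts searched, 5 snoRNA genes lay wholly inside an exon of a host transcript, each in at least 1 retained-intron form. Of these, Gm23187 lies in Nop56-213, the retained-intron transcript that held 25.8% and 17.7% of Nop56 TPM in replicates 1 and 2. Gm23187 also lies in an exon of the protein-coding Nop56-201, which held 9.47% and 12.7%, and of further forms. In all of these, reads of the snoRNA and of the host transcript cannot be told apart.

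The small subunit processome folds and cuts the 5′ part of the precursor, and 6 of its 9 genes lay within a narrow band, from 4.12 to 7.04 TPM. Utp4, Utp15, Wdr43 and Wdr75 belong to the subcomplex that binds the precursor first. Utp4 had 5.15 and 5.30 TPM in replicates 1 and 2, Utp15 had 5.58 and 5.79 TPM, and Wdr43 had 5.52 and 5.63 TPM. Wdr75 had 6.24 and 7.83 TPM. Relative to Utp4 the log2 ratio of Utp15 was 0.12 ± 0.01, that of Wdr43 was 0.09 ± 0.01 and that of Wdr75 was 0.42 ± 0.20, so 3 subunits of 1 subcomplex stood within 1.09-fold of each other per length. With counts not divided by length the ratio of Utp15 to Utp4 came to 1.04 and 1.05 in replicates 1 and 2, and that of Wdr43 to Utp4 averaged 0.76. On protein-coding transcripts alone the ratio of Wdr75 to Utp4 reversed to -0.40.

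Utp6 and Utp18, which sit together in a different subcomplex, were less alike. Utp6 had 17.6 and 16.3 TPM in replicates 1 and 2, and Utp18 had 4.38 and 4.32 TPM. The log2 ratio of Utp18 to Utp6 was -1.96 ± 0.06, or -1.19 on coding transcripts alone. Nop14, an assembly factor, had 4.08 and 4.16 TPM. Bms1, a GTPase, had 12.07 and 12.68 TPM. Utp20, a very large scaffold protein (chromosome 10, minus strand), was the lowest of the 39 at 0.69 and 0.94 TPM, on 1227 and 1151 counts over a transcript of 8831 bases. It was thus low per length and not low in reads.

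Late factors of the small subunit were all under the median of expressed genes. Ltv1, an export and assembly factor, had 3.43 and 4.34 TPM in replicates 1 and 2. Tsr1, a GTPase-like factor that keeps the immature subunit from translating, had 2.63 and 2.94 TPM. Nob1, the nuclease of the last cut in the small-subunit RNA, had 2.44 and 2.97 TPM, and Rrp12, an export factor, had 1.28 and 1.93 TPM. The log2 ratio of Nob1 to Ltv1 was -0.52 ± 0.04. Tsr1, which resembles Bms1 in sequence, stood well under it, with a log2 ratio of -2.15 ± 0.06.

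On the large-subunit side, 3 genes of 1 complex had very different levels. Pes1, Bop1 and Wdr12 form the PeBoW complex, which processes the RNA of the large subunit. Pes1 had 28.3 and 27.6 TPM in replicates 1 and 2, Wdr12 had 9.54 and 7.83 TPM, and Bop1 had 2.98 and 3.06 TPM. Pes1 was thereby 9.26-fold higher than Bop1, and the log2 ratio of Bop1 to Pes1 was -3.21 ± 0.05. For Wdr12 to Pes1 it was -1.69 ± 0.18 and for Bop1 to Wdr12 it was -1.52 ± 0.23. On coding transcripts alone the ratio of Bop1 to Pes1 was -2.37. The order Pes1, Wdr12, Bop1 was the same in both libraries, with counts not divided by length and with coding transcripts alone.

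The other nucleolar factors of the large subunit fell into a higher pair and a lower set. Gnl3 (nucleostemin, a nucleolar GTPase) had 22.1 and 20.2 TPM in replicates 1 and 2, and its relative Gnl2 had 16.2 and 16.5 TPM, with a log2 ratio of Gnl3 to Gnl2 of 0.37 ± 0.12, or 1.03 on coding transcripts alone. Ebna1bp2 had 8.49 and 8.19 TPM and its assembly partner Rrs1 had 2.25 and 2.78 TPM. Ebna1bp2 was 3.33-fold higher than Rrs1, a log2 ratio of 1.74 ± 0.25, or 0.94 on coding transcripts alone. Nop2, an RNA methyltransferase, had 3.20 and 4.34 TPM, and Nop16 had 3.38 and 2.70 TPM. Both thus lay near Bop1 and Rrs1, and under the median of expressed genes.

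Cytoplasmic maturation of the large subunit was represented by Sbds and Eif6, which act in 1 step: Eif6 keeps the subunits apart and Sbds helps to remove it. Sbds had 17.5 and 16.3 TPM in replicates 1 and 2, and Eif6 had 12.7 and 14.3 TPM. The log2 ratio of Eif6 to Sbds was -0.32 ± 0.20 in TPM, -0.94 with counts not divided by length and -1.27 on coding transcripts alone. Both were above the median of expressed genes, whereas all 4 late factors of the small subunit were under it.

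Among genes of RNA polymerase I transcription, Rrn3 and Ubtf were higher than the catalytic subunits Polr1a and Polr1b. Rrn3, which brings the polymerase to the promoter, had 24.6 and 26.0 TPM in replicates 1 and 2, and was rank 6 of 39 by TPM and rank 3 by count. Ubtf, which binds ribosomal DNA, had 10.5 and 12.1 TPM, with a log2 ratio of Ubtf to Rrn3 of -1.16 ± 0.09. The core subunits were low: Polr1a had 1.31 and 1.93 TPM and Polr1b had 1.51 and 2.01 TPM. The log2 ratio of Polr1b to Polr1a was 0.13 ± 0.10. Which of these was higher was not settled, as that ratio was -0.82 with counts not divided by length and -0.23 on coding transcripts alone.

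**Figure D2:**
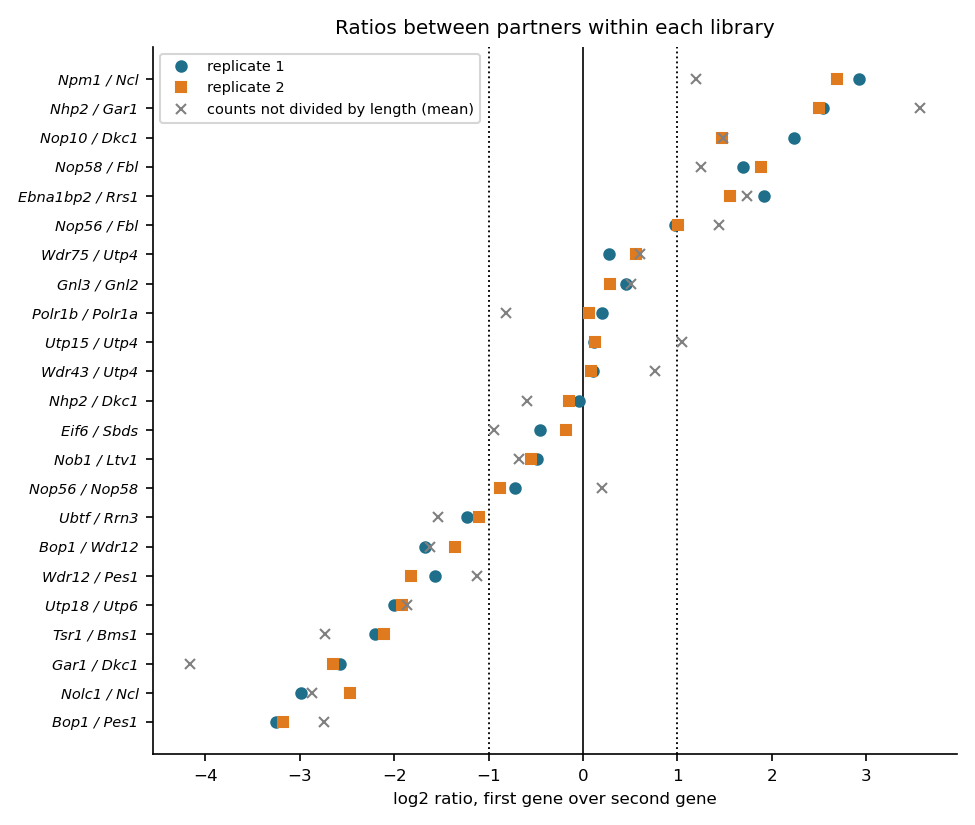
The log2 ratio between partners for 23 gene pairs, within replicate 1 (circles) and within replicate 2 (squares), in deposited TPM; crosses are the mean over both libraries of the ratio of counts not divided by length, and dotted lines mark 2-fold. Every pair kept its sign in both libraries, and 13 of the 23 had a mean difference of 2-fold or more. Many pairs share a gene, and no such count was made over pairs of other genes.

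Of the 23 pairs compared, all 23 had the same sign in both libraries and a mean larger than the SD, and 13 reached 2-fold. Many pairs share a gene, so the 23 are not independent of each other. No such count was made over pairs of other expressed genes, so whether partners differ from unrelated genes in this is not shown. The size of a ratio depended on the measure: counts not divided by length moved 8 pairs by over 1.5-fold, and coding transcripts alone moved 13. With 2 libraries an exact two-sided sign-flip test cannot go below p = 0.5, so these are descriptions of the libraries and not tests.

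Several levels above were set by which annotated transcripts received the reads. A single transcript was listed for 16 of the 39 genes and several for 23. In those 23 the leading transcript held a median of 63.2% of the gene's TPM, against 66.7% over 5845 expressed genes with several transcripts. By share of counts the medians were 85.7% and 79.1%. The most unified genes were Nhp2, whose leading form held 96.4%, Utp18 with 90.0%, Rrp9 with 84.8% and Nop14 with 84.1%. The most divided were Ubtf with 33.4%, Dkc1 with 34.7%, Nop58 with 40.5% and Gar1 with 43.0%. In Ubtf the division was between coding forms, Ubtf-206 with 3.77 and 3.75 TPM and Ubtf-201 with 3.55 and 3.31 TPM in replicates 1 and 2.

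Ncl and Nop58, 2 of the 23 genes, had a leading form that is not protein-coding, as did 10.4% of the 5845 expressed genes. The leading form of Ncl was Ncl-202, a retained-intron transcript of 3072 bases that held 59.0% and 62.4% of its TPM in replicates 1 and 2. For Nop58 it was Nop58-205, annotated to nonsense-mediated decay and only 373 bases long, with 44.3% and 36.7% of the TPM from 652 and 468 counts. By count the leading form was protein-coding in all 23 genes, and not protein-coding in 5.39% of the 5845. For Nop58, coding transcripts made up 22.0 and 33.0 TPM of the gene's level in replicates 1 and 2, and for Ncl they made up 5.65 and 5.63 TPM. Npm1 stood apart from both, with 169.8 and 143.0 TPM from coding transcripts.

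Retained-intron transcripts were annotated for 15 of the 39 genes and held a median of 15.5% of their TPM, against 11.7% over 3485 expressed genes that have such a form. By share of counts the medians were 6.75% and 5.92%. The highest shares of TPM were in Ncl with 75.3%, Gar1 with 48.8%, Utp6 with 47.0% and Nop56 with 33.4%. Ncl was at percentile 98.8 of all genes with such a form, and by counts it was at percentile 96.9, with 48.0%. For Utp6 the share depended on length: by counts it was 8.86%. For Nop56 the retained share was 37.9% in replicate 1 and 28.9% in replicate 2.

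**Figure D3:**
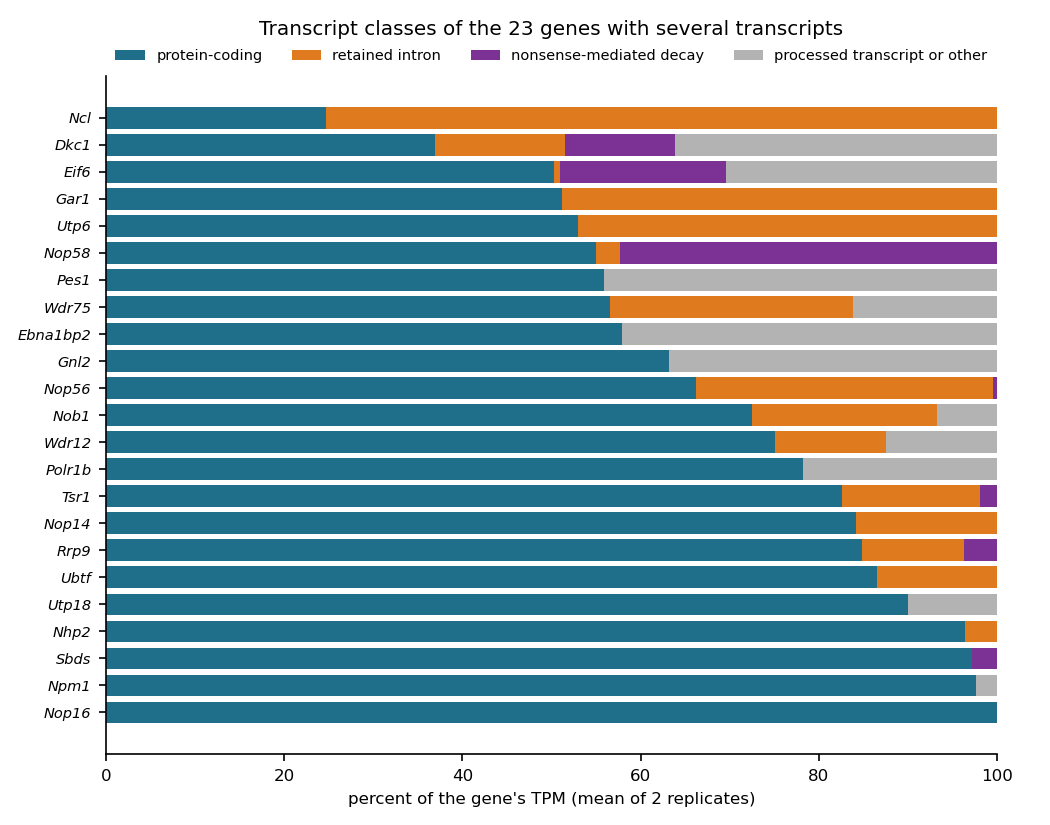
Share of each gene's TPM, as a mean of 2 replicates, held by transcripts of each annotated class, for the 23 genes with several transcripts, ordered by the protein-coding share. Retained-intron forms hold 75.3% of Ncl, forms annotated to nonsense-mediated decay hold 42.3% of Nop58, and 97.7% of Npm1 is protein-coding.

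Some counts could hold reads of a neighbour, since the sources used here do not give how strand was treated in the counting. Opposite-strand genes with 100 or more counts on average overlapped 8 of the 39, where 18.2% of the 7781 expressed genes were so overlapped. The overlap was longest for Tsr1, with 2984 bases shared with Srr (0.80 and 0.97 TPM in replicates 1 and 2), and for Rrp9, with 987 bases shared with Parp3 (0.62 and 0.37 TPM). Wdr12 shared 399 bases with Carf, and the other 5 overlaps were between 5 and 50 bases. Among these short ones, Mpp1 beside Dkc1 had 48.1 and 47.6 TPM in replicates 1 and 2, and Mroh1 beside Bop1 had 29.7 and 22.1 TPM, both above the gene they overlap. The deposited posterior SD of the count, which reflects reads shared between genes, was 0 for 33 of the 39 genes in replicate 1, against 84.3% of expressed genes, and for 35 in replicate 2, against 85.1%. At its largest it was 0.658% of the count. For Npm1, which has many processed pseudogenes, it was 6.15 and 4.43 counts.

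Start regions held a feature that the list was not chosen on. RefSeq windows (GRCm38.p6, from 250 bases before to 50 after the start) were matched for 30 of the 39 genes. Fbl, Rrp12, Rrs1, Utp6, Eif6, Sbds, Gnl2, Bop1 and Npm1 were not matched. The E-box letters CACGTG, which read the same on both strands and which Myc and related factors bind, were in the window of 9 of the 30, against 13.1% of 6280 expressed genes with a window. Of all 32851 windows 7.15% held them. They were found in Nop2, Utp4, Ltv1, Utp20, Pes1, Tsr1, Utp18, Rrn3 and Wdr43, and 9 of the 10 matches lay within 100 bases of the start. The letters GATAAG on either strand, bound by Gata1, were in 0 of the 30, against 6.34% of expressed genes with a window and 7.44% of all windows. A match is a description of letters and shows no binding. With CACGTG in capitals, the windows given here are those of Pes1 (chr11:3963725-3964024, plus strand), the most abundant gene with the motif, and Utp20 (chr10:88826765-88827064, minus strand), the least abundant. Rrn3 (chr16:13780449-13780748, plus strand) holds it at 2 places, and Tsr1 (chr11:74897830-74898129, plus strand) and Wdr43 (chr17:71615965-71616264, plus strand) are snoRNA hosts as well.
Pes1: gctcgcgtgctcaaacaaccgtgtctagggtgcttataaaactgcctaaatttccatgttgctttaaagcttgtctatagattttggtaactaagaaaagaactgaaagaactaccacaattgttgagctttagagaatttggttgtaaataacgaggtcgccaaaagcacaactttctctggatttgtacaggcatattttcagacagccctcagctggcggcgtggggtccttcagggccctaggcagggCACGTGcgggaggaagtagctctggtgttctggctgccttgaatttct
Utp20: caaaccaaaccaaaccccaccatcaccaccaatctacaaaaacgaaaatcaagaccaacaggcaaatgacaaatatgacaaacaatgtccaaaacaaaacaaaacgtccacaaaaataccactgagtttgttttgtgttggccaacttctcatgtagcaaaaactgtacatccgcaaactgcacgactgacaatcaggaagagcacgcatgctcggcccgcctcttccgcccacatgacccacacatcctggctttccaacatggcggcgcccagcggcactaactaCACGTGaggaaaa
Rrn3: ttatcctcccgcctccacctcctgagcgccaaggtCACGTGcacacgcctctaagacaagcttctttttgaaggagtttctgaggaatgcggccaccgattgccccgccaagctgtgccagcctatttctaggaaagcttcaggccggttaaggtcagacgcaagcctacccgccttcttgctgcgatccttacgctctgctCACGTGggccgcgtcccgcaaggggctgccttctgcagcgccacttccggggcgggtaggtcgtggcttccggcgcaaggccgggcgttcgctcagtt
Tsr1: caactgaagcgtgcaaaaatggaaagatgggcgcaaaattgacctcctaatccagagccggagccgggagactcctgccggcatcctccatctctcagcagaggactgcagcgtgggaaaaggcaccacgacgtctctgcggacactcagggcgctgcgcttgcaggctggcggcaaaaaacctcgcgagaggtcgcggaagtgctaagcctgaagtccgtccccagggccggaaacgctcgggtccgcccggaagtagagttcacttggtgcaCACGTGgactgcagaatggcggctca
Wdr43: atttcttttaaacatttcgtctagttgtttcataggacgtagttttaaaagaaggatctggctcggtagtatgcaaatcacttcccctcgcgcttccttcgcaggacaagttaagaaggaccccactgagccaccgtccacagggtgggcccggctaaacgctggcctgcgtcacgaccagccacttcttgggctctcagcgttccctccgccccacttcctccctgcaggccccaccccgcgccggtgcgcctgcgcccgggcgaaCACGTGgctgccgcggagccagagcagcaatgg

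Positions of the motif varied. Counted from the start site as base 1, it began at base 3 in Pes1, 18 in Wdr43, 25 in Tsr1 and 38 in Utp20, and at -215 and -48 in Rrn3. Genes with it had a median of 4.35 TPM, from 0.815 TPM in Utp20 to 28.0 TPM in Pes1, and the 21 without it had a median of 8.34 TPM, from 1.62 to 49.6 TPM. The ranges overlapped, and the difference was not tested. The windows of the 30 genes had a median GC content of 59.7%, against 61.3% in windows of expressed genes.

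The start of another protein-coding gene lay within 1000 bases on the opposite strand, pointing away, for 10 of the 39 genes, where 15.5% of the 7781 expressed genes had such a neighbour. Of these neighbours, 7 reached 1 TPM in both libraries, and Hsf1 beside Bop1, Grk4 beside Nop14 and Cfap57 beside Ebna1bp2 did not. The share of such neighbours of other expressed genes that did so was not computed. Chtf8, beside Utp4, had 12.9 and 16.4 TPM in replicates 1 and 2, and Pbrm1, beside Gnl3, had 10.59 and 10.62 TPM. Cfap57, whose start is 22 bases from that of Ebna1bp2, is listed at 0 in both, beside 8.49 and 8.19 TPM of Ebna1bp2.

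Most of the genes were higher in replicate 2, by less than 2-fold. The log2 ratio of TPM, replicate 2 over replicate 1, was centred on the median of expressed genes, and 30 of the 39 were higher in replicate 2, where 50.1% of 8908 tested genes, those averaging 100 counts or more, were. Without centring it was 28 of 39, against 43.9%, and with the TMM factors of edgeR on counts it was 32, against 48.2%. The median ratio of the 39 was 0.19. In size without sign the median difference was 0.25 in the 39 and 0.16 in tested genes, so a middle member differed more between the replicates than a middle gene. None of the 39 was 2-fold apart, where 2.29% of tested genes were. At 1.5-fold or more higher in replicate 2 were 3 of 39, against 5.59%, and at 1.5-fold or more lower were 0, against 2.59%. All 39 lay inside the middle 95% of tested genes, from -0.60 to 0.89. With 2 libraries of 1 group there is no test of such a difference.

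**Figure D4:**
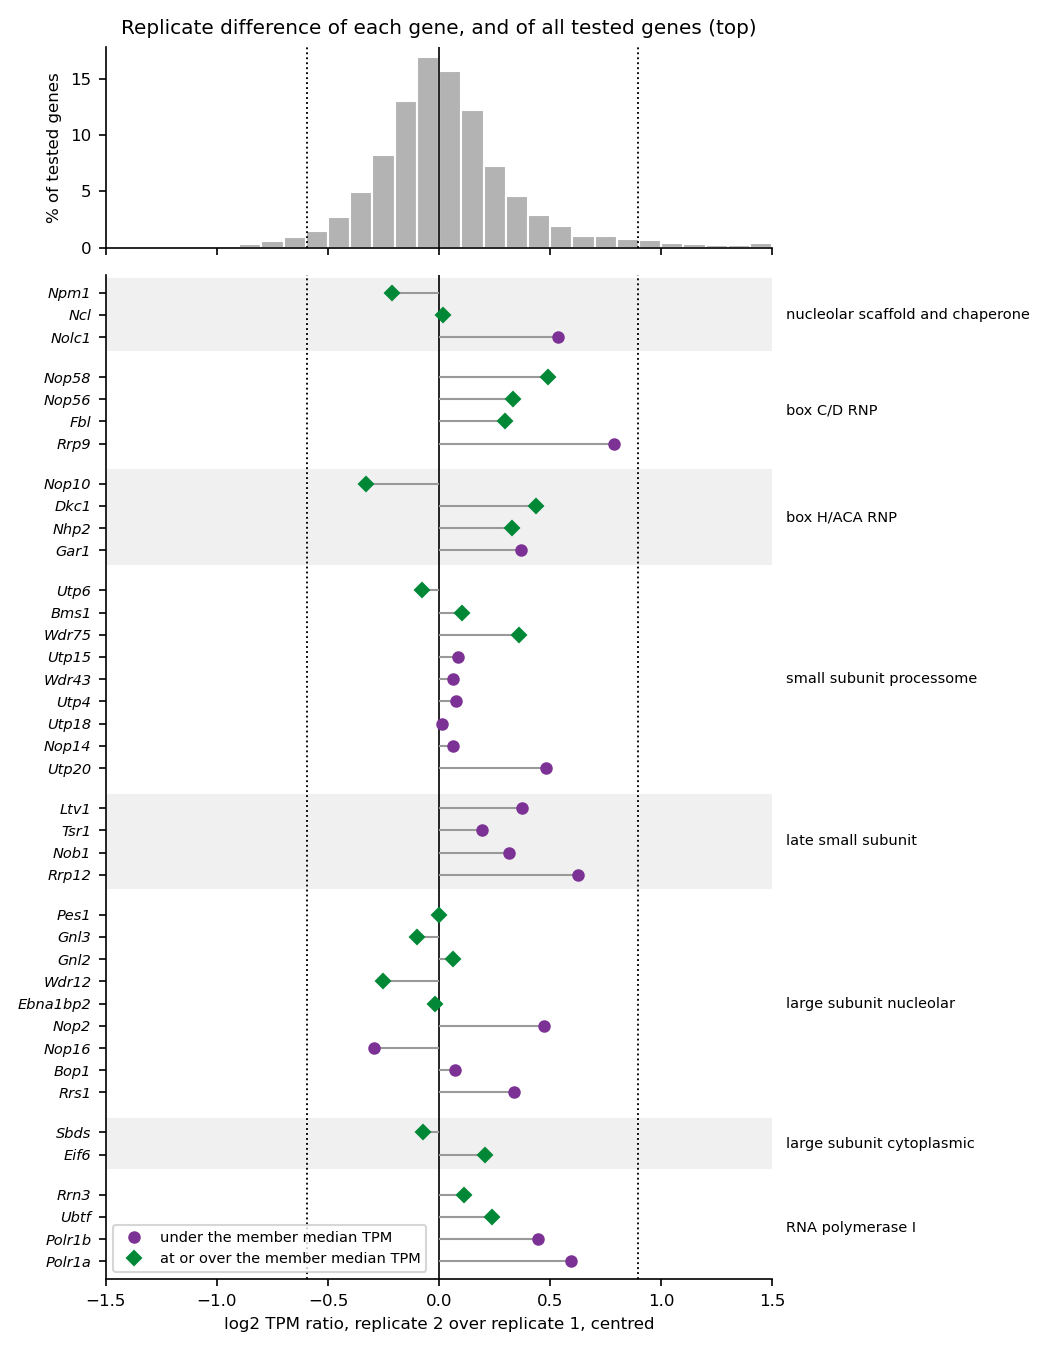
Centred log2 TPM ratio, replicate 2 over replicate 1, for each of the 39 genes by role (bottom) and as a histogram of the 8908 tested genes (top, with values beyond 1.5 in either direction placed in the end bins); dotted lines bound the middle 95% of tested genes. Circles, the genes under the member median of 7.04 TPM, lie right of 0 except Nop16, and diamonds lie on both sides.

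By TPM the genes farthest up in replicate 2 were Rrp9 at 0.79, Rrp12 at 0.63 and Polr1a at 0.59, and those farthest down were Nop10 at -0.33, Nop16 at -0.29 and Wdr12 at -0.25. The value of Nop16 rested on a split between forms: a coding transcript of 790 bases held 39.5% of its TPM in replicate 1 and 0 in replicate 2, and on counts with TMM factors the ratio was 0.10. With TMM factors Wdr12 was at -0.06, Rrp9 at 0.54 under Rrp12 at 0.62 and Polr1a at 0.59, and the farthest down were Nop10 at -0.36 and Npm1 at -0.21. Counts by role follow. All 4 genes of box C/D RNPs (median 0.41), all 4 late small-subunit factors (0.34), all 4 genes of RNA polymerase I transcription (0.34) 8 of 9 processome genes (0.07) and 3 of 4 genes of box H/ACA RNPs (0.35) were higher in replicate 2, and 4 of 9 nucleolar large-subunit factors were, with a median of -0.0022. With TMM factors the counts for the other 5 of these roles were the same, and 6 of the 9 large-subunit factors were higher, with a median of 0.06, near the 0.08 of the processome, so no difference in direction between those roles is shown; uncentred, 7 processome genes were. Of the 19 genes under the member median of 7.04 TPM, 18 were higher in replicate 2, and of the other 20 genes 12 were; with TMM factors these were 19 and 13. The 19 had a median ratio of 0.34, while 4542 tested genes of the same range of mean TPM had a median of 0.01, and 51.5% of those were higher in replicate 2. This division by level was chosen after the values were seen. Summed erythroid marker TPM was also higher in replicate 2 (4153 TPM, against 3135 TPM in replicate 1). Hbb-bs alone had 985.3 and 1629.4 TPM in replicates 1 and 2, while Klf1, Epor and Sptb were lower in replicate 2. The median of the 16 erythroid markers was 64.8 TPM in replicate 1 and 70.3 TPM in replicate 2. The summed myeloid markers were 1.78 TPM in replicate 2 against 0.52 TPM in replicate 1, with Csf1r and Cd68 lower in replicate 2. None of either list was at 0 in both, and depth was lower in replicate 2. The part of the marker levels and of depth in the replicate difference was not tested.

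Most other genes of the pathway were detected as well. Of 121 other ribosome biogenesis genes taken from 5 lists by function, 110 reached 1 TPM in both libraries, against 36.3% of the 21461 protein-coding nuclear genes. The median of the 121 was 4.62 TPM, under the 6.43 TPM of expressed genes. After centring, 88 of them were higher in replicate 2, against 50.1% of the 8908 tested genes. The median replicate difference of the 121 was 0.13. Among 12 further genes of RNA polymerase I, 11 reached 1 TPM, from Tcof1 (0.44 and 0.73 TPM in replicates 1 and 2), a nucleolar cofactor, and Taf1a (1.43 and 1.60 TPM), a promoter factor, to Polr1d (21.3 and 17.7 TPM), a subunit shared with RNA polymerase III, and Taf1d (28.8 and 26.6 TPM). All 14 genes of the exosome and of ribosomal RNA nucleases did, from Exosc4 (1.83 and 2.19 TPM) and Dis3 (2.82 and 3.49 TPM) to Exosc9 (18.1 and 17.3 TPM) and Exosc3 (20.6 and 18.3 TPM). Here too, genes of 1 complex differed in level per length.

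Among 49 other large-subunit genes, 44 reached 1 TPM in both libraries. The lowest were the helicase Ddx51 (0.32 and 0.31 TPM in replicates 1 and 2) and Urb1 (0.54 and 0.73 TPM), and the highest were Rrp1 (42.3 and 43.0 TPM) and Nop53 (58.9 and 53.7 TPM), a recruiter of the exosome. Of 36 other small-subunit genes 33 did, with the helicase Dhx37 (0.80 and 0.75 TPM) and Pwp2 (0.74 and 1.08 TPM) lowest, and Dcaf13 (15.9 and 16.1 TPM) and Trmt112 (24.3 and 23.0 TPM), a cofactor of methyltransferases, highest. Of 10 genes of snoRNP assembly 8 did. Znhit6 (0.32 and 0.45 TPM), which assembles C/D RNPs, and Naf1 (0.70 and 0.40 TPM), which assembles H/ACA RNPs, were lowest, and Ruvbl1 (8.53 and 9.72 TPM) and Snu13 (15.4 and 18.4 TPM), a core protein of C/D RNPs, were highest. Snu13 thus lay near its partner Fbl.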

How the data were processed

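The 2 libraries of total RNA from 1 group were analysed. Gene and transcript expected counts were deposited by the authors, per the file headers, with TPM, a posterior mean TPM, FPKM, each transcript's percent of its gene's TPM, the posterior SD of the count and credible bounds of TPM whose level is not given; the depth is the total count. Per the deposited text lists, reads were placed on mm10 with GENCODE M4. Program and aligner: not given in the sources used here, nor is strand use.

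Symbols, types and coordinates came from GENCODE M21 (GRCm38), joined on identifiers; 42462 of 43346 rows matched. The 26345 rows that name no mouse gene held at most 2.9e-05% of the counts and were left out. Replicate differences are log2 TPM ratios centred on expressed protein-coding nuclear genes, for genes averaging 100 expected counts or more. The calculation was tested on simulated data, but only with changes larger than the replicate difference of any member. It therefore says nothing of differences as small as those of the members. The authors' TPM was used without a pseudocount; alternatives used log2(TPM + 1), and scaling by edgeR 4.0.16 and DESeq2 1.42.0 in R 4.3.3 on counts rounded to whole numbers. Other steps used Python 3.11 and pandas 2.3.3. Pairs were called on a log2 ratio of equal sign in both libraries whose mean exceeded its SD.

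The members and lists were chosen with earlier results of these data known. Named were every member, every pair, the 2 highest and 2 lowest genes of each other list, the 4 extreme transcript shares and the 3 extreme replicate differences in each direction; genes named for overlapping or neighbouring a member were chosen after their values were seen. Riok2 and Exosc6 were not matched and not analysed here.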

Additional observations from a re-analysis of the deposited data

How the results depend on the processing

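No paired analysis was possible because both libraries belong to 1 group. With posterior mean TPM the summed level of the 39 genes was 581.0 TPM, against 581.7 TPM as deposited. Raising the minimum to 5 TPM left 23 of the 39 genes, beside 4366 of the 21461 protein-coding nuclear genes. Raising it to 10 TPM left 15, beside 12.1% of protein-coding nuclear genes. With TPM rescaled to a fixed sum over protein-coding nuclear genes the median level was 49.3, and 39 of the 39 genes reached 1 in both libraries. The share of all genes that did so on that scale was not computed. Deposited TPM is scaled over other rows as well, so each level printed above is lower than on that scale. At 1.5-fold in place of 2-fold, 3 genes were apart. The median replicate difference of 0.19 became 0.14 with TMM factors, 0.14 with DESeq2 size factors and 0.15 on log2(TPM + 1). Nop16 reversed to 0.0991 with TMM factors and 0.0988 with DESeq2 size factors. Counts not divided by length reversed Nop56 to Nop58 (0.20) and Polr1b to Polr1a (-0.82). Coding transcripts alone, chosen after seeing the data, reversed Nhp2 to Dkc1 (1.29), Wdr75 to Utp4 (-0.40) and Polr1b to Polr1a (-0.23). With TMM factors Wdr12 moved from -0.25 to -0.06 and Rrp9 from 0.79 to 0.54. By share of counts the leading share was 85.7% and the retained-intron share 6.75%. Leaving out each replicate in turn gave leading shares from 59.0% to 62.9% and retained-intron shares from 15.2% to 16.6%. Only 1 host had a snoRNA gene with counts in both libraries. At 5 TPM, 54 of the 121 other genes remained above the minimum, beside the same 4366 of 21461 protein-coding nuclear genes. The cause of these changes was not tested, apart from the length or transcripts that an alternative itself removes. Depth limits Gar1 most, whose counts were the lowest of the 39.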
